A study of Arabidopsis with 12 samples.

Results

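Arabidopsis thaliana seedlings of the flu mutant and of the double mutant flu/toc33-1 (flu toc33 below) were compared after 4 h of darkness, before light returned. The 6 libraries were taken by their labels, 3 of flu and 3 of flu toc33, from the 12 libraries of the series. The other 6 had a further 1 h of light and were not used for any difference below. All seedlings had been grown in continuous light, and the sample titles give an age of 7 d where the text on the study's design gives a younger one.

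Both groups carried the flu mutation, and the labelled difference between them is toc33-1. Line background, seed lot and culture go with genotype here and cannot be told apart from it. No wild type and no toc33-1 single mutant was analysed here, and the labels do not say what kind of lesion toc33-1 is. The labels call the tissue leaf and the cells total leaf cells, while the titles speak of seedlings. Whether the 3 replicates of a group were grown apart is not stated, and the p-values below therefore rest on a spread between libraries that may be technical.

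The chloroplast takes up most of its proteins from the cytosol as precursors with a transit peptide. TOC33 is a GTPase of the outer envelope that receives such precursors, chiefly those of abundant photosynthetic proteins, and hands them to the TOC75 channel and then to the TIC translocon of the inner envelope. FLU holds back the first committed step of tetrapyrrole synthesis in the dark. Seedlings without FLU therefore build up protochlorophyllide in darkness, which gives singlet oxygen when light returns. EXECUTER1 and EXECUTER2 are the plastid proteins through which that singlet oxygen is signalled to the nucleus.

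Expression was measured as TPM, a relative transcript level scaled for transcript length and library total, summed over the transcripts of each locus. Of 27655 loci, 18833 reached 1 TPM in at least 3 of the 6 libraries and were tested with limma on log2(TPM + 1). Every log2 value below is a difference on that scale, flu toc33 minus flu, with its standard error, and understates the change of genes with few TPM. A gene is called higher or lower where its Benjamini-Hochberg adjusted p over all genes tested was under 0.05. A gene under 1 TPM in every library of 1 group passed the filter only through the other group. Its direction was thus fixed in advance, and the counts and medians below include such genes.

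The groups differed at 6533 genes, 3258 higher and 3275 lower in flu toc33, which is 17.3% and 17.4% of the genes tested and 34.7% in all. Differences of at least 2-fold were fewer and mostly downward, with 147 genes higher (0.781%) and 345 lower (1.83%). All 3 libraries of 1 group lay above all 3 of the other at 50.4% of the genes. The median log2 difference over all genes was 0.0165. The third flu library stood apart from its replicates. Its median absolute log2 difference to them was 0.156 and 0.152, against 0.0638 to 0.0668 for the other pairs of replicates. Without it 4082 genes were higher and 4549 lower, and 6400 of the original calls were shared. Each library had 18533 to 18825 genes at 1 TPM or more. TPM holds no sequencing depth, so depth is unknown and no counting interval can be given.

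TOC33 itself checked the labels. TOC33 (AT1G02280) stood at 200.4, 194 and 215 TPM in flu and 48.4, 48.2 and 49.4 TPM in flu toc33, a level of 23.9% of flu and a log2 difference of -2.04 ± 0.049, limma adjusted p = 9.9e-08. No library of either group came near the other group. Its 2 transcripts fell alike, since the first took 84.3% of the gene's TPM in flu and 84.2% in flu toc33. Its close homologue TOC34 (AT5G05000), a receptor GTPase of the same branch, gave 29.2, 29 and 33.6 TPM in flu and 30.8, 26.9 and 29.1 TPM in flu toc33, and the groups overlapped (log2 -0.078 ± 0.0767, limma adjusted p = 0.466).

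Among the 10 genes of TOC receptors and the outer channel, 1 was higher and 2 were lower. TOC159 (AT4G02510), the large receptor that works with TOC33, rose from 138, 131 and 109 TPM in flu to 185, 181 and 185 TPM in flu toc33, by 0.55 ± 0.0793, limma adjusted p = 0.00108. The lowest flu toc33 library stood above the highest flu library. SP1, the outer envelope ubiquitin ligase that removes TOC proteins, was the other lower gene beside TOC33 at log2 -0.21 ± 0.0488, limma adjusted p = 0.0109, a call lost without flu toc33 replicate 2. Without flu replicate 3, 2 TOC genes were higher and 4 lower.

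The inner envelope translocon and its motor had more higher than lower calls, with 9 of 18 genes higher, 2 lower and a median log2 difference of 0.15. TIC56 (AT5G01590), a subunit of the large TIC complex, went from 90.7 to 123 TPM (log2 0.44 ± 0.0541) and TIC55 (AT2G24820), a redox-active TIC component, from 82.4 to 108 TPM (log2 0.39 ± 0.0562). The scaffold protein TIC110 and the co-chaperone TIC40 rose as well, by 0.35 and 0.35. TIC21 and TIC22-IV fell, with log2 differences of -0.28 and -0.23. Of 21 plastid chaperone and protease genes 9 were higher and 3 lower, with CPN60B1 (AT1G55490), a chaperonin subunit, highest in its rise at log2 0.53 ± 0.0366, limma adjusted p = 2.08e-05. The Clp protease subunit CLPP3 fell by 0.46 and the Clp ATPase CLPD by 0.46, both on the log2 scale.

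FLU transcript was slightly higher in flu toc33 (log2 0.21 ± 0.05, limma adjusted p = 0.0116), a call lost without flu toc33 replicate 1. EX1 (AT4G33630) was 57.1, 56.8 and 43.5 TPM in flu and 63.4, 64.9 and 65.3 TPM in flu toc33, and the third flu library was lowest. Its log2 difference of 0.30 ± 0.0976, limma adjusted p = 0.0419 was no longer called when any of the 3 flu toc33 libraries was left out. EX2 (AT1G27510) was higher at log2 0.37 ± 0.0452, limma adjusted p = 4.75e-04. OXI1, a kinase that acts in a branch of singlet oxygen signalling beside EXECUTER, fell from 1.59, 2.05 and 1.66 TPM to 0.545, 0.661 and 0.291 TPM, a log2 difference of -0.89 ± 0.13, limma adjusted p = 0.00114. OXI1 was under 1 TPM in every flu toc33 library and passed the filter only through flu. Its direction was thus fixed in advance, and the next count includes it. Of the 5 signalling components tested 4 were higher and 1 lower, but only 2 were higher when any 1 flu toc33 library was left out. Among 21 genes known to respond early to singlet oxygen, 3 were higher and 9 lower, or 5 lower without flu toc33 replicate 3. The lower genes included the transcription factor genes ZAT6 (log2 -0.84), WRKY33 (log2 -0.77) and WRKY53 (log2 -0.75), and the higher ones BAP1, ERF104 and ZAT12. The call of ERF104 was lost without flu toc33 replicate 1 or 2.

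**Figure D1:**
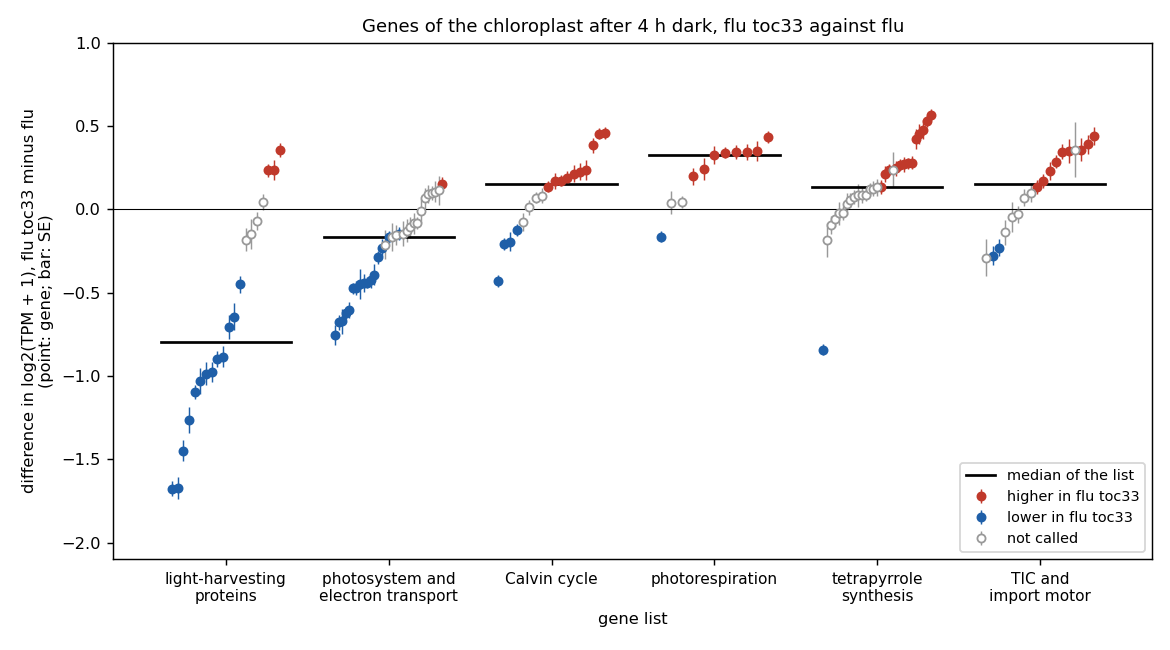
Log2 difference in TPM + 1, flu toc33 minus flu after 4 h of darkness, for each tested gene of 6 chloroplast lists, as points with standard errors, with a bar at each list's median. The light-harvesting genes spread below 0 with a median of -0.80, while the photorespiration genes centre at 0.33.

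The light-harvesting genes, which encode the chlorophyll-binding antenna, had the lowest median of the 4 photosynthesis lists. Of 20 tested, 13 were lower and 3 higher, with a median log2 difference of -0.80, and 6 were at least 2-fold lower. LHCB3 (AT5G54270), a component of the trimeric antenna of photosystem II, gave 919.5, 952 and 1103 TPM in flu and 356, 365 and 364 TPM in flu toc33. The groups stood far apart, with a log2 difference of -1.45 ± 0.0642, limma adjusted p = 2.43e-06. LHCA1 (AT3G54890), an antenna protein of photosystem I, went from 2168 to 1012 TPM (log2 -1.10 ± 0.0425, limma adjusted p = 1.25e-06). The major antenna genes LHCB1.4, LHCB1.2 and LHCB1.5 had log2 differences of -1.68, -1.67 and -1.26, but these copies are near-identical and the split of reads between them is an estimate. The summed TPM of the list lay between 40392 and 48363 in flu and between 22168 and 23441 in flu toc33, and the totals of the groups did not overlap. LHCB2.1, LHCB2.3 and LHCA6 were the 3 that rose, by 0.23, 0.24 and 0.35. In bulk tissue, fewer cells of a type and less RNA per cell cannot be told apart.

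Nuclear genes of the photosystems and electron transport also had more lower than higher calls. Of 31 tested, 16 were lower and 1 higher, with a median of -0.17. Without flu replicate 3, 18 were lower and 5 higher. PSAG (AT1G55670), a small subunit of photosystem I, went from 1873 to 1106 TPM (log2 -0.76 ± 0.0595, limma adjusted p = 4.27e-05), and PSBS (AT1G44575), which triggers the thermal quenching of absorbed light, from 732 to 457 TPM (log2 -0.68 ± 0.0435, limma adjusted p = 1.47e-05). The gamma subunit gene of the chloroplast ATP synthase, ATPC1, was the higher member at log2 0.15 ± 0.0432.

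Of 18 Calvin cycle genes tested, 10 were higher and 4 lower, with a median of 0.15, though 6 were higher without flu toc33 replicate 2 and 2 were lower without any 1 of the flu toc33 libraries. PRK (AT1G32060), which makes the acceptor of carbon dioxide, rose from 722, 699.6 and 683 TPM to 953, 976 and 961 TPM (log2 0.46 ± 0.0354, limma adjusted p = 4e-05). The small Rubisco subunit genes RBCS3B and RBCS1A were lower, with log2 differences of -0.43 and -0.12. The call of RBCS1A was lost without flu replicate 1 or any 1 flu toc33 library. Under quantile normalization RBCS1A stood at 0.147 and RBCS3B at 0 within rounding error. That method gives a gene of the same rank in every library the same value, so a 0 there does not show that RBCS3B levels were alike. The copies of the small subunit genes are also near-identical.

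Photorespiration genes, whose enzymes recycle the product of Rubisco's reaction with oxygen, were higher at 8 of 11 and lower at 1, with a median of 0.33. AGT (AT2G13360), the peroxisomal serine glyoxylate aminotransferase, rose from 1607 to 2173 TPM (log2 0.44 ± 0.035, limma adjusted p = 4.74e-05). The lower gene was SHM1, the mitochondrial serine hydroxymethyltransferase, which fell (log2 -0.17 ± 0.0333, limma adjusted p = 0.00569).

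In tetrapyrrole synthesis 13 of 29 genes tested were higher and 1 lower, with a median of 0.13. HEMA1 (AT1G58290), the glutamyl-tRNA reductase gene at the step that FLU controls, stood at 168, 168 and 169 TPM in flu and 246, 251 and 251 TPM in flu toc33. The groups did not overlap, and the log2 difference was 0.57 ± 0.0344, limma adjusted p = 1.1e-05. CHLH and CHLD, subunits of the magnesium chelatase, rose by 0.48 and 0.45, and CAO, which makes chlorophyll b, by 0.53. PORB (AT4G27440), which reduces protochlorophyllide in light, was the gene that fell. It stood at 436, 441 and 431 TPM in flu and 244, 241 and 243 TPM in flu toc33, a log2 difference of -0.84 ± 0.0333, limma adjusted p = 1.33e-06. The transcript of PORC, another oxidoreductase of protochlorophyllide, was 73.7, 72.6 and 81.3 TPM in flu and 72.4, 69.1 and 71.5 TPM in flu toc33, and the difference was not called (log2 -0.093 ± 0.0545, limma adjusted p = 0.223). Without flu replicate 3, 18 were higher and 2 lower. PORA, the etioplast form, did not reach the level for testing. Of 10 chlorophyll breakdown genes 4 were higher and 5 lower.

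Regulators of chloroplast genes were mostly higher, with 7 of 10 higher, 1 lower and a median of 0.33. All 6 sigma factor genes, whose products direct the plastid-encoded RNA polymerase to promoters, were called higher, from a log2 difference of 0.22 for SIG6 to 0.52 ± 0.0508, limma adjusted p = 1.33e-04 for SIG1 (AT1G64860). GLK1, an activator of nuclear antenna and chlorophyll genes, went the other way, from 42.6 to 28.2 TPM (log2 -0.58 ± 0.0566, limma adjusted p = 1.4e-04). GLK2 was at log2 0.0052 ± 0.0474 and was not called. Transcripts of the plastid genome itself changed in both directions, 16 of 84 higher and 28 lower. Their share of all TPM was 0.414% to 0.509% in the flu libraries and 0.349% to 0.39% in the flu toc33 libraries, without overlap. Whether library making removed part of the plastid RNA was not tested, so these values describe the sequenced libraries and not plastid RNA levels. The family's median of -0.0913 was smaller in size than its standard deviation between replicates, 0.141. ATCG00190 rose by 1.38 on the log2 scale, and ATCG00440 and ATCG00070 fell, at -1.47 and -1.37.

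Genes of carbon starvation, which darkness is known to induce, were higher in flu toc33 than in flu at the same hour of darkness. Of 18 tested, 12 were higher and 2 lower, with a median of 0.40. DIN6 (AT3G47340), asparagine synthetase 1, stood at 368, 375 and 313 TPM in flu and 709, 727 and 696 TPM in flu toc33, and all 3 flu toc33 libraries were far above flu (log2 1.02 ± 0.0661, limma adjusted p = 1.56e-05). DIN3, a subunit of the branched-chain keto acid dehydrogenase, rose by 0.85 and BXL1, a cell wall xylosidase, by 0.83. The 2 that fell were DIN2 (AT3G60140), a beta-glucosidase, from 13 to 3.36 TPM (log2 -1.69 ± 0.152, limma adjusted p = 8.63e-05), and DIN11 (AT3G49620), from 55.6 to 22.7 TPM (log2 -1.26 ± 0.0762, limma adjusted p = 1.1e-05).

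Genes for the breakdown of branched-chain amino acids, lysine and proline were higher at 13 of 16 genes with 1 lower and a median of 0.32. ERD5 (AT3G30775), the mitochondrial proline dehydrogenase, gave 304, 304 and 300.2 TPM in flu and 634, 629 and 633 TPM in flu toc33, and the groups did not overlap (log2 1.06 ± 0.0321, limma adjusted p = 3.26e-07). MCCA, a subunit of methylcrotonyl-CoA carboxylase in leucine breakdown, rose by 0.90 and GDH1, a glutamate dehydrogenase, by 0.62. Autophagy genes were higher at 4 of 12 and lower at none, with ATG8E at 0.41, and 8 were not called by limma.

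Starch genes were lower at 9 of 19 and higher at 3. BAM5 (AT4G15210), a beta-amylase outside the chloroplast, showed the largest fall, with 6.6, 5.58 and 5.76 TPM in flu and 0.879, 0.372 and 0.795 TPM in flu toc33 (log2 -2.06 ± 0.137, limma adjusted p = 1.7e-05). The group ranges were well apart, but BAM5 was under 1 TPM in every flu toc33 library. It passed the filter only through flu, so its direction was fixed in advance. GBSS1, the granule-bound starch synthase, fell by 0.69 on the log2 scale. In nitrogen assimilation 3 of 14 genes were higher and 6 lower, with nitrate reductase NIA1 at 0.68 and the cytosolic glutamine synthetase GLN1;1 at -0.65. Of 19 sugar transporter genes of the SWEET, STP and SUC families, 8 were higher and 5 lower. STP14 (AT1G77210), a plasma membrane galactose transporter, rose from 34.7, 35.2 and 35.6 TPM to 89.3, 92.1 and 89.5 TPM (log2 1.34 ± 0.0429, limma adjusted p = 4.85e-07), and SUC1, a sucrose importer, fell (log2 -0.77 ± 0.0943).

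**Figure D2:**
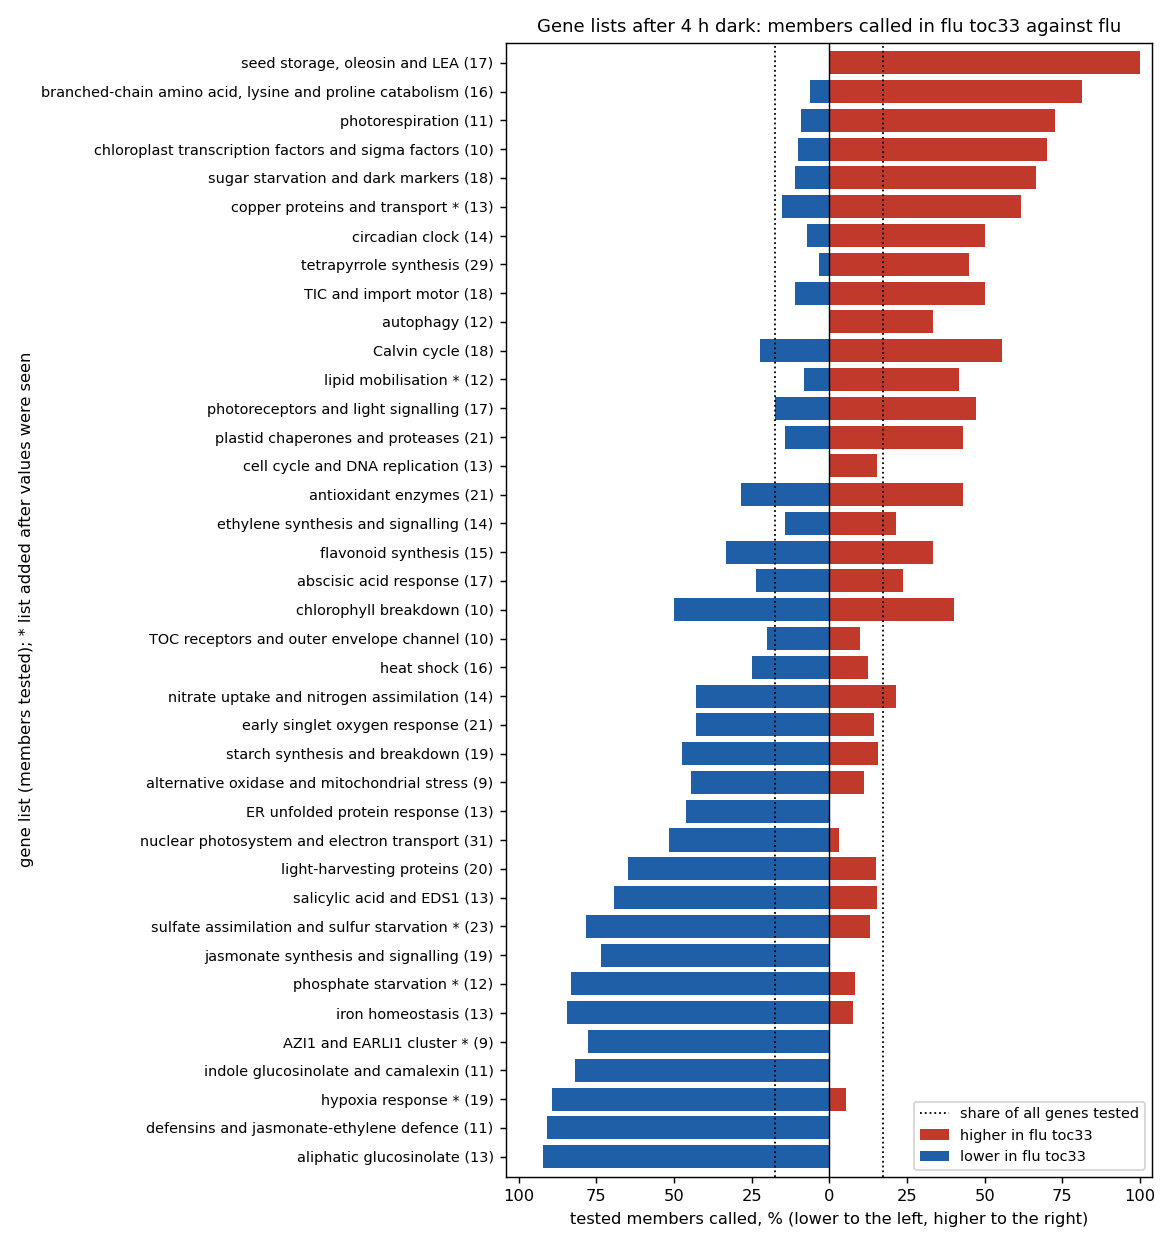
Share of tested members called higher (right) and lower (left) in flu toc33 than in flu in the dark, in percent, for each gene list with at least 9 members tested, with dotted lines at the shares over all genes, 17.3% and 17.4%. Seed storage and amino acid catabolism lists reach furthest to the higher side. The lower side is led by aliphatic glucosinolate (12 of 13), defensins (10 of 11), hypoxia (17 of 19) and iron homeostasis (11 of 13). Phosphate (10 of 12), indole glucosinolate and camalexin (9 of 11) and sulfate (18 of 23) follow. The unstarred lists were chosen with earlier results of these data known, and the starred lists were added after values were seen.

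In flu toc33 defence genes had far more lower than higher calls. Of 11 genes of the defensin and jasmonate-ethylene branch, 10 were lower and none higher, with a median of -1.10, and 7 fell at least 2-fold. PDF1.2 (AT5G44420), a plant defensin used as the marker of joint jasmonate and ethylene signalling, stood at 150.3, 144 and 169 TPM in flu and 0.69, 0.528 and 1.04 TPM in flu toc33. The groups lay far apart, and the log2 difference was -6.48 ± 0.112, limma adjusted p = 2.6e-08. PDF1.2c and PDF1.3 gave -6.00 and -5.09, but the transcripts of these defensins are near-identical and the split between them is an estimate. PDF1.2c was under 1 TPM in every flu toc33 library and passed the filter only through flu, so its direction was fixed in advance. PDF1.2b fell less, from a mean of 6.80 TPM in flu to 2.27 TPM in flu toc33 (log2 -1.25). PR4 (AT3G04720), a chitin-binding protein, went from 321, 308 and 332 TPM to 91.4, 90.2 and 90.5 TPM (log2 -1.81 ± 0.041, limma adjusted p = 9.9e-08). ORA59, the transcription factor that joins both hormone inputs at these defensin genes, fell by 0.89 on the log2 scale.

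**Figure D3:**
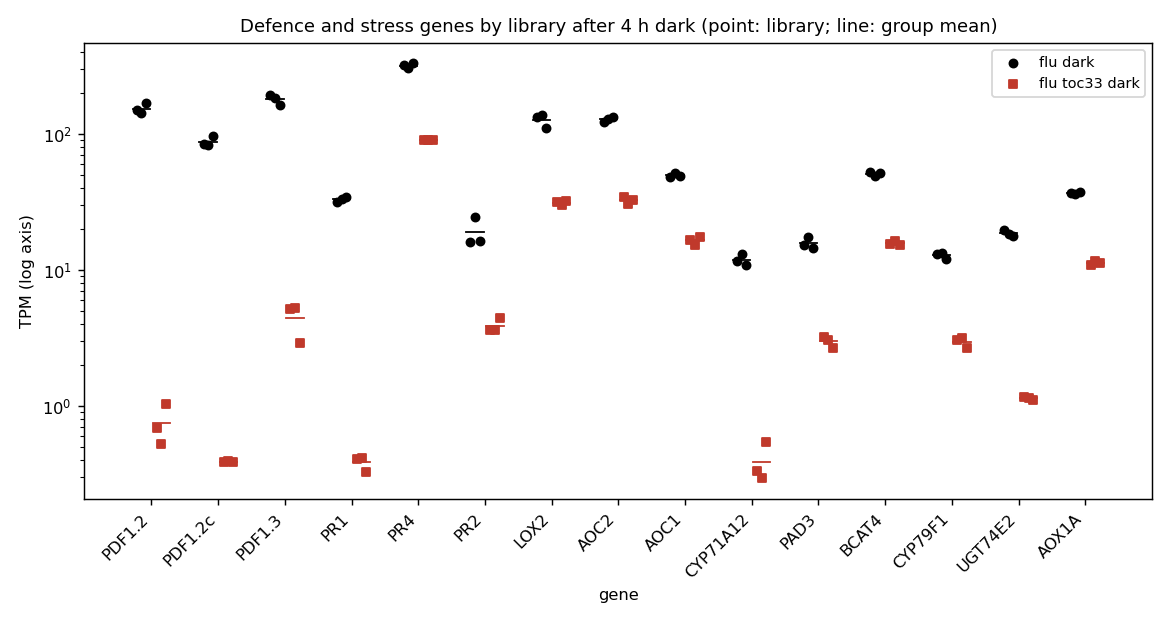
TPM on a log axis of 15 genes of defence and mitochondrial stress in each of the 6 dark libraries, flu and flu toc33 as separate colours. The 3 flu toc33 points of PDF1.2 range from 0.528 to 1.04 TPM and those of flu from 144 to 169 TPM, and AOX1A separates the groups with no overlap. PR1, PDF1.2c and CYP71A12 were under 1 TPM in every flu toc33 library and passed the filter only through flu.

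The salicylic acid branch was lower at 9 of 13 genes tested and higher at 2, with a median of -0.53. PR1 (AT2G14610), its standard marker, was 31.8, 33.7 and 34.3 TPM in flu and 0.411, 0.416 and 0.329 TPM in flu toc33 (log2 -4.63 ± 0.0775, limma adjusted p = 2.6e-08). The groups were separated at every library. However, PR1 and another gene of the list, SARD1, were under 1 TPM in every flu toc33 library. They passed the filter only through flu, so their direction was fixed in advance, and the count and median include them. PR2, a beta-glucanase, and PR5, a thaumatin-like protein, fell, with log2 differences of -2.02 and -0.91. SAG101, a partner of EDS1, and CBP60G, an activator of salicylic acid synthesis, were the 2 that rose.

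Jasmonate synthesis and signalling was lower at 14 of 19 genes and higher at none, or at 1 by limma's unadjusted p, with a median of -0.54. LOX2 (AT3G45140), the chloroplast lipoxygenase that starts the pathway, gave 134, 138 and 112 TPM in flu and 31.6, 30.3 and 32 TPM in flu toc33, and the groups did not overlap (log2 -1.99 ± 0.0785, limma adjusted p = 1.33e-06). AOS, allene oxide synthase, fell at -0.93, and the cyclases AOC2 and AOC1 at -1.95 and -1.53, a pair of adjacent similar copies. JAZ1, a repressor that jasmonate induces, was at -0.99. Of 14 ethylene genes 3 were higher and 2 lower, and the higher calls of EIN2 and ERS1 were lost without any 1 flu toc33 library.

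Camalexin and indole glucosinolates are tryptophan-derived defence compounds of Arabidopsis. Of 11 of their genes 9 were lower and none higher, with a median of -0.47. PAD3 (AT3G26830), the last enzyme of camalexin synthesis, fell from 15.8 to 3 TPM (log2 -2.07 ± 0.0947, limma adjusted p = 2.62e-06), and CYP81F2, which modifies indole glucosinolates, was at -1.42. CYP71A12 and CYP71A13, adjacent copies at an earlier step, were at -3.22 and -1.77. Both were under 1 TPM in every flu toc33 library and passed the filter only through flu, so their direction was fixed in advance. Aliphatic glucosinolate genes, which start from methionine, were lower at 12 of 13, with 8 at least 2-fold lower and a median of -1.08. BCAT4 (AT3G19710), the aminotransferase that begins side chain elongation, stood at 52.5, 48.9 and 51.6 TPM in flu and 15.7, 16.4 and 15.3 TPM in flu toc33. No library crossed the gap (log2 -1.63 ± 0.056, limma adjusted p = 6.56e-07). MAM3, of the elongation cycle, fell at -1.53, and CYP79F1 and CYP79F2, another pair of similar neighbours, at -1.80 and -1.76. The activator MYB28 was at -0.26 ± 0.064 and MYB29 was at -0.16 ± 0.139, which was not called.

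Families with known roles in defence are set beside the shares over all genes tested, 17.3% higher and 17.4% lower. WRKY factors were lower at 14 of 42 and higher at 3, with WRKY75 and WRKY45 at -1.77 and -1.69. Cysteine-rich receptor kinases were lower at 10 of 23 and higher at 2. Calmodulin-like genes were lower at 4 of 11, CML41 at -1.45, and higher at none. Receptor-like proteins were higher at 6 of 27 and lower at 3, with a median of 0.17, and only 3 were higher without flu toc33 replicate 2 or 3, while 7 were lower without flu replicate 3. U-box ubiquitin ligases were higher at 3 of 20 and lower at 3, or 7 lower without flu replicate 3. With all 6 libraries, the counts of receptor-like proteins and U-box ligases were not far from those shares.

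Enzyme families of detoxification followed. Of 44 glutathione transferase genes, 29 were lower and 3 higher, with a median of -0.44, and 11 fell at least 2-fold. GSTU11 (AT1G69930) fell from 5.42 to 0.549 TPM (log2 -2.06 ± 0.146, limma adjusted p = 2.5e-05), and the adjacent copies GSTF6 and GSTF7 were at -1.40 and -1.76. Of 50 UDP-glycosyltransferase genes 22 were lower and 7 higher, or 4 higher without any 1 of the flu toc33 libraries or flu replicate 2. UGT74E2 (AT1G05680), which conjugates an auxin precursor, gave 19.6, 18.6 and 17.8 TPM in flu and 1.17, 1.15 and 1.1 TPM in flu toc33 (log2 -3.20 ± 0.0778, limma adjusted p = 9.9e-08). Cytochrome P450 genes were balanced in number, 36 of 137 higher and 34 lower, but 16 were at least 2-fold lower and none 2-fold higher. CYP81D8 (AT4G37370) fell by 5.76-fold in TPM and CYP71B11 (AT5G25120) rose at log2 0.93.

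Alternative oxidases pass electrons to oxygen in mitochondria without pumping protons, and their genes mark mitochondrial stress. Of 9 genes of alternative oxidases and mitochondrial stress, 4 were lower and 1 higher. AOX1A (AT3G22370) stood at 37, 36.2 and 37.4 TPM in flu and 10.9, 11.7 and 11.3 TPM in flu toc33, with a narrow spread in both groups (log2 -1.62 ± 0.0568, limma adjusted p = 7.4e-07). AOX1D and the outer membrane protein gene OM66 were at -2.45 and -1.23. AOX1D was under 1 TPM in every flu toc33 library and passed the filter only through flu, so its direction was fixed in advance. Antioxidant enzymes split, 9 of 21 higher and 6 lower. CSD2 (AT2G28190), the chloroplast copper-zinc superoxide dismutase, rose from 28.5, 29.7 and 27.9 TPM to 63.1, 65.6 and 64.1 TPM (log2 1.14 ± 0.0485, limma adjusted p = 1.87e-06). GPX7, a plastid glutathione peroxidase, rose by 1.02, the cytosolic CSD1 by 0.77, their copper chaperone CCS by 0.67 and the iron superoxide dismutase FSD2 by 0.58. APX1, the cytosolic ascorbate peroxidase, and DHAR1 fell, at -0.53 and -0.52.

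Genes of iron homeostasis, both of the deficiency response and of iron storage, were lower at 11 of 13 and higher at 1, with a median of -0.47. BHLH100 (AT2G41240), a transcription factor of the iron deficiency response, fell from 3.47 to 0.206 TPM (log2 -1.89 ± 0.0967, limma adjusted p = 4.82e-06), and its relatives BHLH38 and BHLH39, adjacent copies, were at -1.66 and -1.36. BHLH100, BHLH38 and BHLH39 were under 1 TPM in every flu toc33 library and passed the filter only through flu. Their direction was thus fixed in advance, and the count and median include them. The signalling peptide genes IMA2 and IMA1 were at -1.43 and -1.14. Of the ferritins, which store iron, FER1 and FER3 were lower (log2 -0.16 and -0.41) and FER4 was the higher gene of the list (log2 0.31 ± 0.044).

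Of 17 photoreceptor and light signalling genes 8 were higher and 3 lower. RUP1 (AT5G52250), a brake on the UV-B receptor, rose from 14.1 to 27.1 TPM (log2 0.89 ± 0.0747, limma adjusted p = 5.89e-05), HYH, a homologue of HY5, by 0.66 and the photoreceptor PHYA by 0.59. PIL1, a shade marker, was at -0.67. Clock genes were higher at 7 of 14 and lower at 1, with RVE1 at 0.72 and LHY at 0.45 and LUX, an evening gene, at -0.42. B-box factors, which act in light responses, were higher at 11 of 24 and lower at 1, or 7 higher without flu toc33 replicate 2.

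Families of growth and the cell wall were called in both directions. SAUR genes, small auxin-induced genes of cell expansion that lie in clusters of similar copies, were lower at 28 of 56 and higher at 4, with a median of -0.28, and only 1 or 2 were called higher when any 1 flu toc33 library was left out. IAA29 and IAA19, Aux/IAA repressors, fell at -1.79 and -1.64, and the auxin-conjugating GH3.3 at -1.22. Of 5 GH3 genes tested 1 was higher and 1 lower. Expansins, which loosen walls, were lower at 10 of 19 and higher at none, or at 1 by limma's unadjusted p. Arabinogalactan proteins were lower at 24 of 42 and higher at 1. Extensins, structural wall proteins, were higher at 3 of 6 and lower at 2, with a median of 0.65 that became -1.44 at a filter of 5 TPM. Both lower members fell at least 2-fold. The summed extensin level was 552 to 712 TPM in flu and 216 to 252 TPM in flu toc33. XTH25, a xyloglucan transferase, rose at 1.05 while XTH15 and XTH19 fell at -0.99 and -0.94, and of 28 members 6 were higher and 11 lower.

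Of all lists, seed maturation had the highest median. Of 17 tested genes of storage proteins, oleosins and LEA proteins, 17 were higher, with a median of 2.81, and 15 were at least 2-fold higher. The albumin genes SESA1 to SESA4 and the cruciferin gene CRU2 were under 1 TPM in every flu library. They passed the filter only through flu toc33, so their direction was fixed in advance, and the count and median include them. SESA1 (AT4G27140), a 2S albumin, was 0.239, 0.48 and 0.343 TPM in flu and 271, 55.8 and 199 TPM in flu toc33, a log2 difference of 6.75 ± 0.486, limma adjusted p = 2.7e-05. The flu toc33 libraries differed widely among themselves, and each lay far above flu. CRU3 (AT4G28520), a cruciferin globulin, gave 21.1, 17.3 and 18.9 TPM in flu and 196, 44.6 and 142 TPM in flu toc33 (log2 2.43 ± 0.449, limma adjusted p = 0.00366), and the oleosin OLEO1, a coat protein of oil bodies, was at 3.98. Albumins SESA2, SESA3 and SESA4 were at 6.85, 6.35 and 6.26, but SESA1 to SESA4 are adjacent near-identical copies. The summed TPM of the list was 84.2 to 89.7 in flu and 376, 1216 and 1725 in the flu toc33 libraries from lowest to highest. The libraries of flu toc33 kept nearly the same order at these genes. Of 17 genes, 16 were highest in flu toc33 replicate 1 and 16 lowest in replicate 2. The ratio of replicate 1 to replicate 2 had a median of 4.56 and ranged from 1.02 to 5.90, against a median of 0.994 over all genes. The list's median was 2.40 without flu toc33 replicate 1 and 3.34 without flu toc33 replicate 2.

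**Figure D4:**
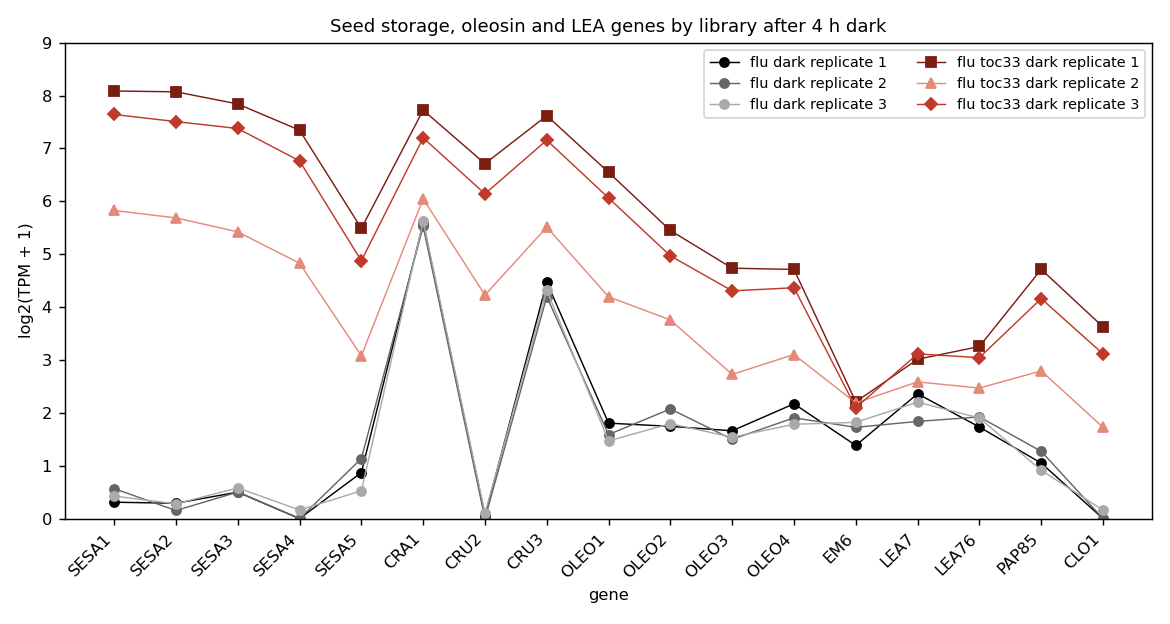
Level of 17 seed maturation genes in each of the 6 dark libraries on the y axis, as log2(TPM + 1), with the genes along the x axis and a point per library. At all 17 the 3 flu toc33 points lie above the 3 flu points, which holds at 26.8% of all genes tested. Of the 17, 16 are lowest of the 3 flu toc33 libraries in replicate 2. SESA1 to SESA4 and CRU2 were under 1 TPM in every flu library and passed the filter only through flu toc33.

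The embryo regulators did not share this level. LEC1 was listed at 0 in all 6 libraries, and LEC2, FUS3, ABI3 and ABI4 did not reach the level for testing. Of the 3 seed regulators and repressors tested none was called by limma, and 1, ABI5, had an unadjusted p under 0.05 (0.106 adjusted).

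Markers of other cell types were measured beside these genes. Root markers were higher at 3 of 5 tested and lower at 1, and COBL9 and IRT1 were under 1 TPM in both groups on average. Their summed level was 1234 to 1451 TPM in flu and 1645 to 1687 TPM in flu toc33. PYK10 (AT3G09260), a root and hypocotyl beta-glucosidase, made up most of it, with 1339, 1309.6 and 1141 TPM in flu and 1515, 1551 and 1562 TPM in flu toc33. Libraries labelled leaf thus carried abundant transcript of this marker in both groups. Other markers of the list were far lower. NAI2 averaged 88.6 TPM in flu and 109 TPM in flu toc33, PER57 9.28 and 12.2 TPM, and CASP1 3.17 and 2.00 TPM.

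Vascular markers were higher at 3 of 6 and lower at 2, and their sum was 625 to 641 TPM in flu and 820.1 to 833 TPM in flu toc33. The xylem protease XCP1 had a log2 difference of -0.84 and the phloem sugar exporter SWEET11 of 0.60. Guard cell markers were lower at 2 of 5 and higher at none, with sums of 120 to 133 TPM and 110.1 to 115 TPM. Epidermis markers were higher at 4 of 4, but at 1 or 2 when any 1 flu toc33 library was left out. Their sums were 1056 to 1136 TPM and 1180 to 1241 TPM. Mesophyll markers were lower at 3 of 4 and higher at 1, and share LHCB1.3 with the light-harvesting list. Their sums were 37030 to 41266 TPM in flu and 28760 to 29861 TPM in flu toc33. The lower calls of the root marker CASP1 and the guard cell marker SLAC1 were lost without any 1 library other than flu replicate 3. The part of these cell types in the differences above was not tested.

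Single genes outside any list were named by a rule that asked for large differences and groups without overlap, so their separation is part of the choice. MRD1 (AT1G53480) rose from 1.17, 1.39 and 1.17 TPM to 27.3, 28.3 and 24.7 TPM (log2 3.63 ± 0.0856, limma adjusted p = 9.9e-08), and AT3G12640 from 21.5, 22.4 and 16.8 TPM to 158, 157 and 163 TPM (log2 2.92 ± 0.0957, limma adjusted p = 5.3e-07). AT1G64795 went from 0, 4.49 and 0 TPM in flu to 55, 32 and 59.7 TPM in flu toc33 (log2 4.77 ± 0.604, limma adjusted p = 5.38e-04). At 0 TPM in flu replicates 1 and 3, AT1G64795 could pass the filter only with flu toc33. Among falls, LURP1 (AT2G14560) and NATA1 (AT2G39030) were at -2.73 and -2.68. LURP1 was under 1 TPM in every flu toc33 library and passed only through flu, so its direction was fixed in advance.

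Several groups were chosen after their values were seen and are given by counts with examples. Genes of sulfate assimilation and sulfur starvation were lower at 18 of 23 tested and higher at 3, with a median of -0.77. APR3 (AT4G21990), an adenylyl sulfate reductase at the control step, gave 116, 117 and 121 TPM in flu and 24, 23.5 and 23 TPM in flu toc33 (log2 -2.28 ± 0.045, limma adjusted p = 3.76e-08). Hypoxia genes were lower at 17 of 19 and higher at 1, with a median of -1.06 and 11 at least 2-fold lower. HB1 (AT2G16060), a nonsymbiotic haemoglobin, went from 105, 102 and 98.9 TPM to 16.5, 17.2 and 16.2 TPM (log2 -2.55 ± 0.0501, limma adjusted p = 3.76e-08), and ADH1, alcohol dehydrogenase, was at -1.45. Phosphate starvation genes were lower at 10 of 12 and higher at 1, with SPX1, a phosphate sensor protein, at -1.66 and the noncoding RNA IPS1 at -1.40. Genes of copper proteins, copper transport and related functions, among them CSD2, CSD1 and CCS above, were higher at 8 of 13 and lower at 2. The higher ones include FSD1, an iron superoxide dismutase, at 0.43, and the transcription factor gene SPL7 at 0.34. The call of SPL7 was lost without flu toc33 replicate 1 or 2. Genes of lipid mobilisation, which feed acetyl-CoA from fatty acids into the glyoxylate cycle, were higher at 5 of 12 and lower at 1, with isocitrate lyase ICL at 1.05 and malate synthase MLS at 0.81. Without flu replicate 3, lipid mobilisation had 6 higher and 3 lower and a median of 0.091 in place of 0.15, and copper genes had 8 higher and 3 lower. The higher phosphate call was lost without any 1 flu toc33 library, and only 1 copper gene was lower without any 1 library other than flu replicate 3. Genes of the AZI1 and EARLI1 cluster of hybrid proline-rich proteins were lower at 7 of 9 and higher at none.

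**Figure D5:**
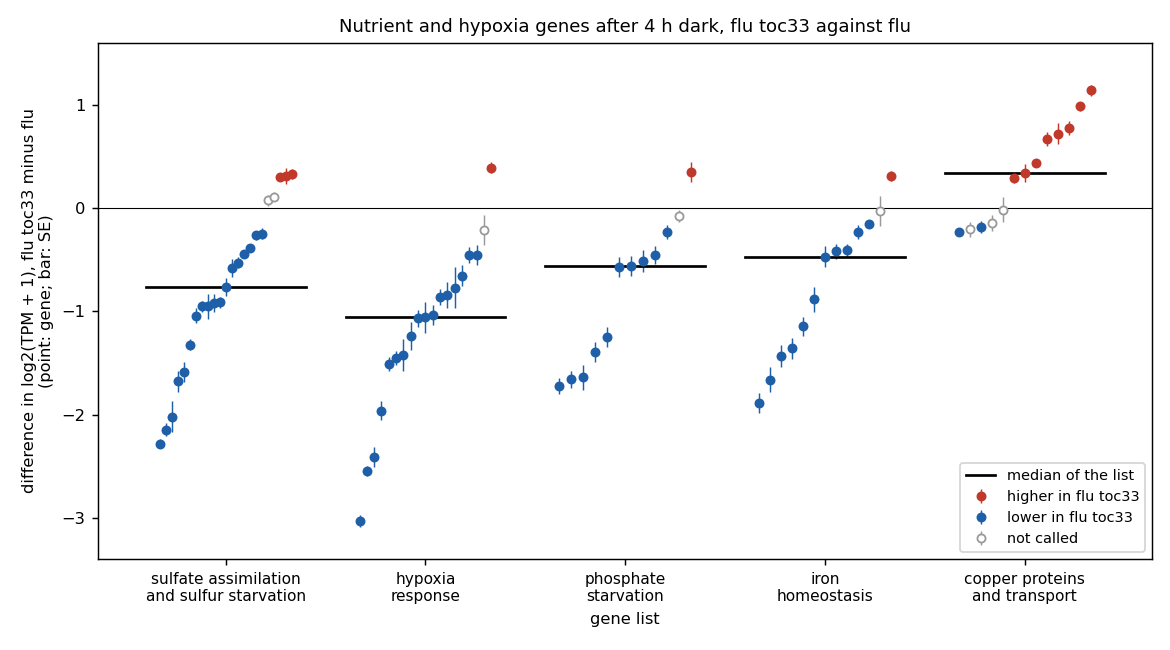
Log2 difference in TPM + 1, flu toc33 minus flu in the dark, for each tested gene of the sulfate, hypoxia, phosphate, iron and copper lists, as points with standard errors and a bar at the median. Hypoxia genes centre at -1.06 and sulfate genes at -0.77, while copper genes centre at 0.34.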

How the data were processed

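Total RNA of the seedlings was sequenced on a DNBSEQ-T7 platform, per the labels' protocols. The authors deposited a table of TPM values for 48359 transcripts in 12 libraries; kallisto 0.46.2, sleuth 0.30.0 and TAIR10 are named, per the submitters' processing notes. Which transcript set and settings they used is not stated there. Estimated abundance shares reads between near-identical copies, so their split is uncertain.

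TPM were summed over the transcripts of each of 27655 loci, and symbols for 27445 came from RefSeq (TAIR10.1), whose coordinates were not used. A gene was tested where 3 or more of the 6 dark libraries reached 1 TPM, on log2(TPM + 1), a pseudocount of 1, with limma 3.58.1 (trend, two-sided, R 4.3.3) and Benjamini-Hochberg adjustment over all genes tested, at 0.05. Plots were drawn with matplotlib 3.10.9 from tables made in pandas 2.3.3 with numpy 2.4.6 (Python 3.11.15). TPM hold no depth, so no counting interval was computed.

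The comparison, the 40 lists (599 loci) and the 34 families were chosen with earlier results of these data known. A further 6 lists were added after values were seen. Lists are described by counts and medians only. Named genes were TOC33, TOC34, FLU, EX1 and EX2, the 15 largest rises and falls of at least 2-fold at 5 TPM or more with groups apart, up to 5 called members per list and up to 2 per direction and family; other list members are named only as examples chosen after their values were seen. On simulated data for this comparison, over 18864 genes, limma recovered 50 of 67 genes changed 1.5-fold, 62 of 67 changed 2-fold and 66 of 66 changed 4-fold, and called 15 unchanged genes. The genes changed there all had a flu mean of 5 TPM or more, and noise was drawn independently for each gene and library. Those rates do not carry over to the real comparison, where 34.7% of genes were called. Same-numbered libraries of both groups did not deviate together, so numbers were not taken as pairs. Alternatives were other pseudocounts, filters and normalizations, transcripts tested singly, all 12 libraries, a replicate block and leaving out each library.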

Additional observations from a re-analysis of the deposited data

How the results depend on the processing

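Main counts were 3258 genes higher and 3275 lower. Leaving out each library in turn gave 2210 to 4082 higher and 2410 to 4549 lower, the most without flu replicate 3, and 272 to 312 named genes called instead of 311. The other settings (pseudocounts of 0.1 and 5, no filter, a filter of 5 TPM, median-ratio and quantile normalization, robust fit, organelle genes left out, all 12 libraries, transcripts singly) gave 2655 to 4097 higher and 2484 to 3948 lower. Testing against a 2-fold threshold left 34 higher and 128 lower. A replicate block gave 3020 higher and 3025 lower, 5829 of these shared with the fit without it; same-numbered libraries had deviation correlations of -0.0447, -0.0192 and 0.0162, so the numbers do not pair them. List medians above 0 numbered 20 to 21 and family medians 7 to 13 over the left-out libraries. Direction reversed under quantile normalization for the medians of plastid chaperones (-0.0178), mesophyll markers (0.0234) and aquaporins (0.0145), and for RBCS1A (0.147), while RBCS3B came to 1.78e-15, which is 0 within rounding error. It reversed at a filter of 5 TPM for extensins (-1.44) and aquaporins (0.0438), and with no filter for receptor-like proteins (-0.0109). Without single libraries the median of seed regulators ran from -0.039 to 0.206 and of aquaporins from -0.069 to 0.0041. Other medians near 0 also changed sign without some single library: without flu replicate 3 those of cytochrome P450 (-0.021), ABC transporters (-0.042) and U-box ligases (-0.0090), and without other libraries those of the MYB, ERF and DREB, Aux/IAA, lipid transfer protein and cytochrome P450 families. The cause was not tested. Depth is unknown, so the precision of genes near 1 TPM rests on the spread of 3 libraries.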

Other observations

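Further lists and families showed smaller or mixed differences between flu toc33 and flu in the dark. Of 17 abscisic acid response genes 4 were higher and 4 lower. RD29B and RD26, induced by abscisic acid and drought, had log2 differences of 0.75 and 0.46, while the cold-induced COR15B and KIN1 were at -1.40 and -1.21. COR15B was under 1 TPM in every flu toc33 library and passed the filter only through flu. COR15A, adjacent to COR15B and similar to it, was at -0.83, a call lost without flu replicate 1 or any 1 of the flu toc33 libraries. Of 16 heat shock genes 2 were higher and 4 lower. The small heat shock gene HSP17.4 was at -0.82, but was under 1 TPM in every flu toc33 library and passed the filter only through flu. In the unfolded protein response of the endoplasmic reticulum 6 of 13 genes were lower and none higher, led by the chaperone BIP2 (-0.22). That count ran from 1 to 10 as single libraries were left out, with 10 without flu replicate 3. Flavonoid synthesis had 5 of 15 genes higher and 5 lower, each falling to between 2 and 3 without some libraries, flu replicates 1 and 2 and each of flu toc33 among them. PAL1 and C4H, at the entry of phenylpropanoid synthesis, were at -0.97 and -0.49, and UGT78D2, which glycosylates flavonoids, was at 0.46. Cell cycle genes were higher at 2 of 13 and lower at none, or at 1 by limma's unadjusted p, and both calls, CYCB1;1 and PCNA2, were lost without flu replicate 2 or flu toc33 replicate 1 or 3, that of CYCB1;1 also without flu toc33 replicate 2 and that of PCNA2 also without flu replicate 1.

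Among further transcription factor families, 5 of 49 NAC genes were higher and 13 lower, with NAC1 (AT1G56010) and NAC047 at -0.94 and -0.90; 3 were higher without flu toc33 replicate 2. Of 52 MYB genes 10 were higher and 8 lower, or 4 and 5 lower without flu toc33 replicates 1 and 2. MYB16, a regulator of the cuticle, went from 22.6 to 42.1 TPM (log2 0.87 ± 0.0495, limma adjusted p = 8.15e-06). Plastid ribosomal protein genes were higher at 10 of 21 and lower at 1, and 16 were higher without flu replicate 3. Proteasome subunit genes were lower at 13 of 36 and higher at none, or at 1 by limma's unadjusted p, and 8 were lower without flu toc33 replicate 1. Without flu replicate 3, 18 were lower and 3 higher. TIP3;1 (AT1G73190), a vacuolar aquaporin of seeds, was 2.02, 2.4 and 2.79 TPM in flu and 18.1, 6.59 and 13.9 TPM in flu toc33 (log2 1.93 ± 0.293, limma adjusted p = 0.00137). As at the seed storage genes, flu toc33 replicate 1 was highest and replicate 2 lowest of the 3 flu toc33 libraries.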
